A study of Mus musculus with 16 samples.

Results

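Transcripts were compared between wild-type spermatids and wild-type MI spermatocytes, the haploid cells that follow meiosis and the spermatocytes that enter its divisions. These groups held 2 libraries each, 4 of the 16 libraries of the series, and were chosen by the sample titles. Both came from testes of 8-week-old C57BL/6J males with the genotype WT, as sorted cells and polyA-enriched bulk RNA. The other libraries were wild-type spermatogonia and MII spermatocytes and the same 4 cell types of mice with a floxed and a null Tex10 allele (Tex10 f/-) and Stra8iCre, in which the Stra8 promoter, used by premeiotic germ cells, drives Cre. These mice are called KO below, their KO spermatids and KO MI spermatocytes are used at the end, and no source used here describes the sort. Levels are FPKM, fragments scaled for transcript length and for library size, in the order replicate 1, replicate 2.

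Spermatids arise when spermatocytes complete the first and the second meiotic division without a pause for DNA replication. In the haploid cell the histones are exchanged for transition proteins and then protamines, an acrosome forms from Golgi vesicles, and a flagellum and the midpiece are built. Transcription stops before the nucleus is fully condensed, so many messages of round spermatids are stored and translated later, and genes of the sex chromosomes, silenced in the sex body during meiosis, can be read again in part.

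The labelled types were checked against marker genes. The 8 markers of elongating spermatids summed to 10711 and 12567 FPKM in WT spermatids, against 118 and 84.1 FPKM in WT MI spermatocytes. Round spermatid markers summed to 1308 and 1560.3 FPKM in WT spermatids, against 121 and 128 FPKM in WT MI spermatocytes. The summed late spermatocyte markers were 7059 and 6676 FPKM in WT spermatids and 2952 and 2861 FPKM in WT MI spermatocytes, and Pgk2 and Ldhc, which belong to that list, were called higher in spermatids. Markers of spermatogonia summed to 1.23 and 2.02 FPKM in WT spermatids, against 62.2 and 36.8 FPKM in WT MI spermatocytes, and 7 of 7 were called lower. Sertoli, Leydig and immune markers stayed at or below 33.8 FPKM per gene in these 4 libraries. Sertoli markers summed to 39.9 and 30.1 FPKM in WT spermatids, against 12.8 and 11.1 FPKM in WT MI spermatocytes, and Cst12 and Aard of the 5 tested were called higher. The call of Cst12 ended without WT spermatid replicate 1 or 2 or WT MI spermatocyte replicate 1 (adjusted p from 0.074 to 0.15) and with equal totals (adjusted p = 0.14). The call of Aard ended when any of the 4 libraries was left out (adjusted p from 0.051 to 0.12) and with quantile normalization or equal totals (adjusted p from 0.058 to 0.16). Leydig markers summed to 62.3 and 12.8 FPKM in WT spermatids and 22.7 and 18.5 FPKM in WT MI spermatocytes. The 10 immune markers summed to 5.70 and 3.44 FPKM in WT spermatids and 3.40 and 2.06 FPKM in WT MI spermatocytes. Of 6 myoid and endothelial markers 3 were called lower, 1 of them also without WT MI spermatocyte replicate 1, and the list summed to 14.3 and 5.79 FPKM in WT spermatids, against 181 and 46.6 FPKM in WT MI spermatocytes, mostly Dcn at 9.35 and 3.695 FPKM in spermatids and 161 and 34.01 FPKM in MI spermatocytes, and the call of Dcn ended without WT MI spermatocyte replicate 1 (adjusted p = 0.068). The part of these other cells in the differences below was not tested.

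The change between these stages was wide. Of 13099 genes tested with limma on log2(FPKM + 1), 5543 (42.3%) had an adjusted p under 0.05 after Benjamini-Hochberg correction, 2955 (22.6%) of them higher and 2588 (19.8%) lower in spermatids. Among the higher genes 1448 differed by more than 2 on the log2 scale and 449 by more than 4, whereas among the lower genes 504 and 16 did. The median log2 difference was 1.96 among genes called higher and −1.42 among genes called lower, and −0.01 over all genes. The genes called higher made up 51.7% and 50.8% of the FPKM of the WT spermatid libraries, against 22.1% and 21.4% of the WT MI spermatocyte libraries. Genes called lower made up 2.35% and 2.25% in WT spermatids and 15.4% and 13.98% in WT MI spermatocytes. In bulk RNA, fewer cells of a type and less RNA per cell cannot be told apart.

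The balance of the calls depended on how the libraries were scaled. FPKM summed to 512412 and 533859 in WT spermatids, against 277335 and 302210 in WT MI spermatocytes. With the deposited scale 53.3% of calls were higher in spermatids, with median-of-ratios scaling 55.0%, with quantile normalization 43.5% and with every library scaled to the same FPKM total 26.3%. The median over all genes shifted by −0.16 with quantile normalization and by −0.55 with equal totals. Counts after scaling to equal totals, an alternative chosen after seeing the data, therefore stand beside those of the gene lists below, and over all genes 12.6% were then called higher and 35.3% lower. The median log2 difference over all genes was then −0.56.

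**Figure D1:**
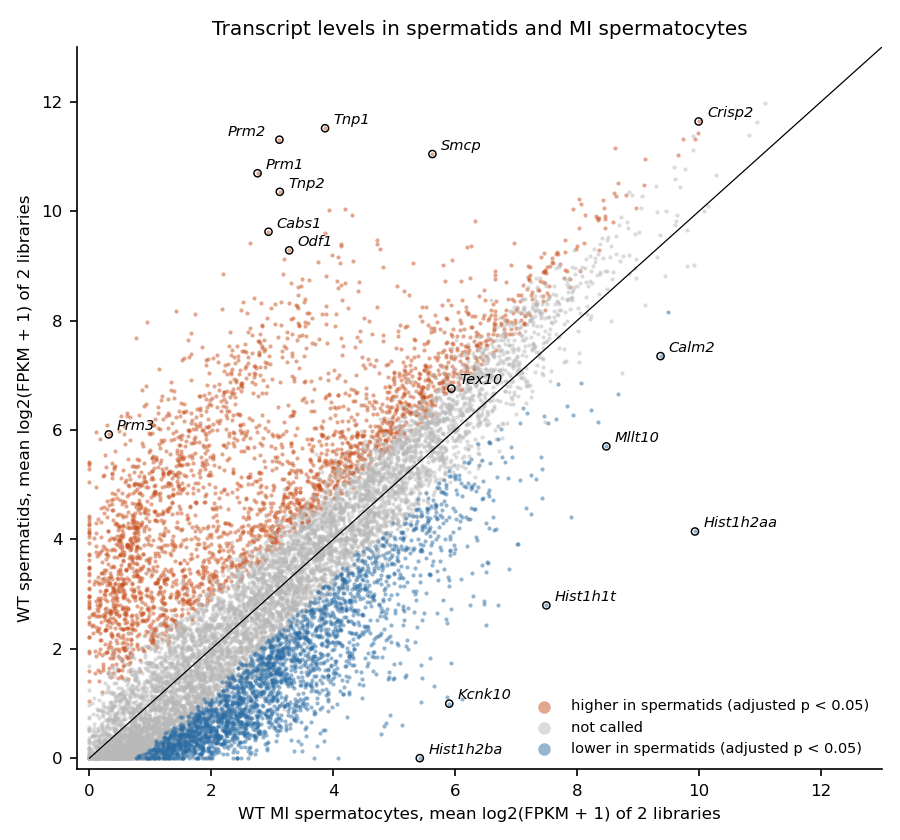
Each point is a gene, with its mean log2(FPKM + 1) over 2 libraries in WT spermatids on the y axis and in WT MI spermatocytes on the x axis, and the line marks equal levels. Orange genes (2955) were called higher and blue genes (2588) lower in spermatids, and Prm1, Prm2, Tnp1 and Tnp2 lie farthest above the line at high spermatid levels.

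Of the 194 genes named here 47 share exon bases with another annotated gene, 8 of them on the same strand, and since no source used here says that counting used strand, reads of such pairs may not be told apart.

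The regions before the starts of the 4 most abundant chromatin-packaging genes and of the gene with the largest fall are shown first, because the results on sperm chromatin turn on these genes. Tnp1 and Tnp2 encode transition proteins, Prm1 and Prm2 encode protamines, and Hist1h2aa encodes a testis H2A (RefSeq, GRCm38.p6, each printed on the strand of the gene and ending at the base before the annotated start). Capitals mark matches to TGANNTCA, which has the frame of the cAMP response element TGACGTCA, to TATAA, to TGACG or to the octamer ATGCAAAT, on either strand. For Tnp1 the run is chr1:73015900-73016049 on the minus strand, for Tnp2 chr16:10788656-10788805, for Prm1 chr16:10796824-10796973 and for Prm2 chr16:10792106-10792255, the last 3 on the minus strand.
Tnp1: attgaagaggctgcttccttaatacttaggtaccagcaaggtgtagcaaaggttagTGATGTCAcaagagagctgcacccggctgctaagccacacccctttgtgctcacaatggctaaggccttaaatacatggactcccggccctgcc
Tnp2: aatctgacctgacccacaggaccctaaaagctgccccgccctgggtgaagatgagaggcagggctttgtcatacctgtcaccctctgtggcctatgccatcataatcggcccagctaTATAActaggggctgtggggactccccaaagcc
Prm1: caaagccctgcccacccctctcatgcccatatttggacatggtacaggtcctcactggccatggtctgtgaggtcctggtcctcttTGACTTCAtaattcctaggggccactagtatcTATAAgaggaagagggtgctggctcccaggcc
Prm2: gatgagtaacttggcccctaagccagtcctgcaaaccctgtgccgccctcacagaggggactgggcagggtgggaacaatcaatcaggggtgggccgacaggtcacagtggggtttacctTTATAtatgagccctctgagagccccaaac
Hist1h2aa: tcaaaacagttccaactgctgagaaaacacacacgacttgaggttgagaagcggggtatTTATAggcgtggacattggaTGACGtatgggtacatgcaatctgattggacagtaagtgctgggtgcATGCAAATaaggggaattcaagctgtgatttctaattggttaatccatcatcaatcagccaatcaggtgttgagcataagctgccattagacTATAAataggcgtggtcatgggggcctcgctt
Tnp1 held TGATGTCA with its first base 94 bases before the start, and Prm1 held TGACTTCA 64 bases before it. A TATAA or its reverse complement began 33 bases before the start in Tnp2, 32 in Prm1 and 30 in Prm2. The Hist1h2aa run is chr13:23934187-23934436 on the plus strand, and this region lies between Hist1h2aa and Hist1h2ba, whose starts are 280 bases apart and face away from each other. In it ATGCAAAT began 124 bases and TATAA 32 bases before the Hist1h2aa start. These matches describe letters in a window and are not shown to be sites.

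The packaging genes Prm2, Prm1, Tnp1 and Tnp2 had the largest rises among named genes. The list of transition proteins and protamines also holds Prm3, counted for its place in the protamine cluster, which had the smallest rise of the list. All 5 genes of the list were called higher, with a median log2 difference of 7.65. After scaling to equal totals 5 of 5 remained called, with a median of 6.80. Prm2 held 1791 and 3574 FPKM in WT spermatids, against 10.8 and 5.39 FPKM in WT MI spermatocytes, a log2 difference of 8.19 ± 0.62 (SE) (adjusted p = 2.0e-06). Prm1 held 1592 and 1717 FPKM in WT spermatids, against 11.2 and 2.76 FPKM in WT MI spermatocytes (log2 difference 7.94 ± 0.75 SE, adjusted p = 5.1e-06). Tnp1 held 2592 and 3301 FPKM in WT spermatids, against 14.9 and 12.3 FPKM in WT MI spermatocytes (log2 difference 7.65 ± 0.31 SE, adjusted p = 1.3e-08). Both spermatid libraries lay far above both MI libraries for each of these genes, while the levels in MI spermatocytes were above 0. Tnp2 held 1099.5 and 1552 FPKM in WT spermatids, against 8.77 and 6.76 FPKM in WT MI spermatocytes, and Prm3, a protamine-cluster gene, held 57.4 and 61.6 FPKM in spermatids, against 0.550 and 0 FPKM in MI spermatocytes. The 5 genes together were 1.39% and 1.91% of the FPKM total of the WT spermatid libraries, against 0.0167% and 0.00900% of the WT MI spermatocyte libraries.

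The testis histone list split into rises and falls. Of 8 tested, 4 were called higher and 4 lower, also after scaling to equal totals. The falls include H3f3b, whose product is not limited to the testis. The spermatid linker histones rose: Hils1 held 551 and 381 FPKM in WT spermatids, against 12.2 and 5.21 FPKM in WT MI spermatocytes, and H1fnt held 423 and 248 FPKM in spermatids, against 3.299 and 6.63 FPKM in MI spermatocytes. Among core histone variants 1700024P04Rik, which RefSeq names H2bl1, held 854 and 544 FPKM in WT spermatids, against 5.07 and 5.35 FPKM in WT MI spermatocytes (log2 difference 6.78). H2afb1, an X-linked H2A variant, held 74.6 and 36.9 FPKM in WT spermatids, against 0 and 1.25 FPKM in WT MI spermatocytes. The histones of spermatocytes moved the other way. Hist1h2aa held 13.7 and 20.3 FPKM in WT spermatids, against 1394 and 683 FPKM in WT MI spermatocytes, the largest fall among named genes (log2 difference −5.79 ± 0.51 SE, adjusted p = 3.7e-06). Its neighbour Hist1h2ba, a testis H2B, was listed at 0 in both WT spermatid libraries, against 59.4 and 29.2 FPKM in WT MI spermatocytes. Hist1h1t, the linker histone of spermatocytes, held 5.75 and 6.11 FPKM in WT spermatids, against 159 and 203 FPKM in WT MI spermatocytes (log2 difference −4.70 ± 0.36 SE, adjusted p = 2.1e-06). H3f3b, which encodes histone H3.3, fell to 21.9 and 23.9 FPKM in WT spermatids, against 92.5 and 61.3 FPKM in WT MI spermatocytes. Hist1h4d, Hist1h2ai, Hist1h2ab and Hist1h1e of the clustered histone genes were also called lower, with log2 differences of −5.04, −4.51, −4.33 and −3.05. Clustered histone genes are near-identical in sequence, so reads may be split between them, and most of their messages lack a polyA tail, so polyA-enriched libraries hold only a part of them.

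**Figure D2:**
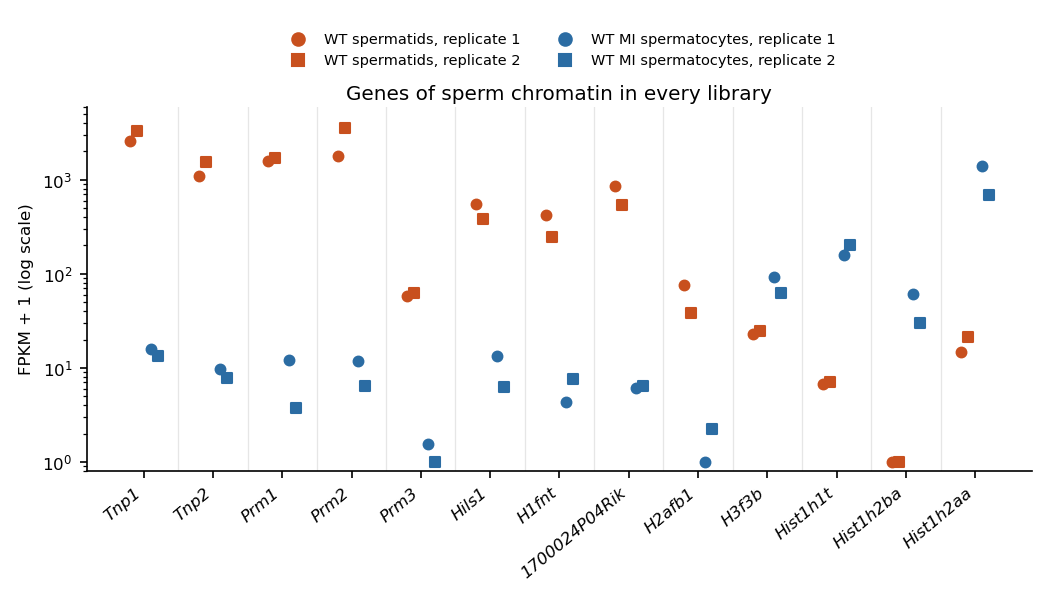
FPKM + 1 on a log axis in each library for the list of transition proteins and protamines and the list of testis histones, H3f3b included. WT spermatids are in orange left of WT MI spermatocytes in blue (circles replicate 1, squares replicate 2). The groups do not overlap for any of the 13 genes, and Hist1h2ba sits at 0 FPKM in both spermatid libraries. Over all genes tested, 39.2% had both spermatid libraries above both MI spermatocyte libraries and 38.5% had both below.

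Of 11 factors of histone acetylation, reading and removal, 4 were called higher and 1 lower, and 2 and 5 after scaling to equal totals, where the list median was −0.46 in place of 0.38. With equal totals it lay 0.09 above the median over all genes. With a library left out, the number called higher was 2 without WT spermatid replicate 2 or WT MI spermatocyte replicate 1. Cdyl, a chromodomain reader, held 76.3 and 67.2 FPKM in WT spermatids, against 4.98 and 3.32 FPKM in WT MI spermatocytes, and Chd5, a remodeller that mouse spermatids need for histone removal, held 42.5 and 40.2 FPKM in spermatids, against 1.87 and 2.64 FPKM in MI spermatocytes. Sirt1, a deacetylase, fell to 8.56 and 10.04 FPKM in WT spermatids, against 33.7 and 32.5 FPKM in WT MI spermatocytes. Brdt, the testis bromodomain protein, held 464 and 534 FPKM in WT spermatids and 271 and 285 FPKM in WT MI spermatocytes, and its sign turned with the scaling (log2 difference 0.84, adjusted p = 0.18, and −0.01 with equal totals).

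Among 24 transcription regulators of spermatids 14 were called higher and 1 lower, and 8 and 5 after scaling to equal totals. In fits that left out a library, the number called higher was 9 without WT spermatid replicate 1 or WT MI spermatocyte replicate 1. Crem, the activator of many postmeiotic genes, held 165 and 187 FPKM in WT spermatids, against 45.4 and 42.4 FPKM in WT MI spermatocytes (log2 difference 1.98 ± 0.39 SE, adjusted p = 0.0012), and its call ended with quantile normalization (adjusted p = 0.099). Fhl5 (ACT), its coactivator, held 78.7 and 84.2 FPKM in WT spermatids, against 2.403 and 2.66 FPKM in WT MI spermatocytes. Kif17, the kinesin that moves Fhl5 out of the nucleus, differed by 3.99. The regulators of ciliary genes also differed in this direction: Foxj1 held 93.2 and 69.7 FPKM in WT spermatids, against 3.56 and 2.13 FPKM in WT MI spermatocytes, and Rfx1 and Rfx3 differed by 2.91 and 2.44. Sox5, an SRY-box factor of spermatids, differed by 3.27. Taf4b, a TFIID subunit of germ cells, was the list's fall, with 1.45 and 2.18 FPKM in WT spermatids, against 11.6 and 8.12 FPKM in WT MI spermatocytes.

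Acrosome genes were mostly higher: 23 of 33 were called higher and 1 lower, with a median log2 difference of 2.71, and 18 and 2 after scaling to equal totals. Acrv1, an acrosomal vesicle protein, held 351 and 461 FPKM in WT spermatids, against 19.6 and 13.9 FPKM in WT MI spermatocytes (log2 difference 4.53 ± 0.57 SE, adjusted p = 2.9e-05). Spaca1, another gene of the acrosome list, held 129 and 148 FPKM in WT spermatids, against 6.61 and 3.55 FPKM in WT MI spermatocytes. Spam1, a hyaluronidase, differed by 4.44, Zp3r by 4.21, the actin-like Actl7a by 4.53 and the X-linked theca gene Cylc1 by 4.98. The protease acrosin and several other acrosome genes were already high in MI spermatocytes. Acr held 159.7 and 171 FPKM in WT spermatids and 58.7 and 73.2 FPKM in WT MI spermatocytes (log2 difference 1.32, adjusted p = 0.075), and Zpbp2 and Dpy19l2 had adjusted p of 0.056 and 0.057. These 3 genes lay close to the threshold and were called under 7, 9 and 8 of the alternatives. Gopc, a Golgi protein needed for acrosome formation in mice, fell to 4.03 and 3.7999 FPKM in WT spermatids, against 10.9 and 10.7 FPKM in WT MI spermatocytes, and this call ended without WT spermatid replicate 2 or WT MI spermatocyte replicate 1 (adjusted p from 0.059 to 0.063).

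Genes for the meeting of sperm and egg followed the same direction. Of 10 fusion genes 9 were called higher, also after scaling to equal totals, and Izumo4 was not called. Izumo1, the sperm ligand of the egg receptor Juno, held 62.4 and 92.8 FPKM in WT spermatids, against 4.64 and 3.62 FPKM in WT MI spermatocytes (log2 difference 3.92 ± 0.58 SE, adjusted p = 1.0e-04). Izumo2 and Izumo3 differed by 4.91 and 4.57, Tmem95 and Spaca6 by 3.50 and 3.41, and Dcst1 by 3.95. Among 26 ADAM proteases and their maturation factors 19 were called higher and 2 lower, with a median of 3.47, and 16 and 2 after scaling to equal totals. The number called lower was 1 without WT spermatid replicate 1 or 2 or WT MI spermatocyte replicate 1. Adam24 held 80.7 and 138 FPKM in WT spermatids, against 2.81 and 4.02 FPKM in WT MI spermatocytes. Pdilt and Calr3, chaperones for sperm surface proteins, differed by 4.35 and 3.83. Adam3, needed for migration through the oviduct in mice and abundant in both groups, differed by 1.58, a call that ended when any of the 4 libraries was left out (adjusted p from 0.055 to 0.1) and with quantile normalization or equal totals (adjusted p from 0.26 to 0.42). Tex101, a surface protein needed for ADAM3 maturation in mice, went the other way, with 8.02 and 4.34 FPKM in WT spermatids, against 138 and 77.4 FPKM in WT MI spermatocytes (log2 difference −3.91 ± 0.44 SE, adjusted p = 1.4e-05). Pairs such as Adam26a and Adam26b, and Adam6a and Adam6b, are near-identical copies whose reads the counting could split.

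Subunits of the CatSper channel, the calcium channel of the sperm tail, were in part called higher and in part not called. Of 21 genes of the channel and of sperm ion transport 8 were called higher (7 after scaling to equal totals) and 13 were not called. The pore subunit Catsper1 held 189.5 and 237 FPKM in WT spermatids, against 8.26 and 12.6 FPKM in WT MI spermatocytes (log2 difference 4.24 ± 0.63 SE, adjusted p = 1.1e-04), and the pore subunits Catsper3 and Catsper4 differed by 4.13 and 3.97. The fourth pore subunit, Catsper2, held 437 and 574 FPKM in WT spermatids and 215 and 267 FPKM in WT MI spermatocytes and was not called (log2 difference 1.06, adjusted p = 0.19). Catsper2 was called higher in a limma fit of the 4 libraries alone (adjusted p = 0.0056). The subunits were not tested against each other. Efcab9, a calcium sensor of the channel, held 172 and 213 FPKM in WT spermatids, against 8.27 and 4.24 FPKM in WT MI spermatocytes. The sperm potassium channel gene Kcnu1 and its partner Lrrc52 differed by 3.53 and 3.77 and the sodium pump Atp1a4 by 5.14. Of 14 testis kinases and phosphatases 11 were called higher (9 after scaling to equal totals) and 3 were not called. Tssk2, a testis-specific serine kinase, held 223 and 151 FPKM in WT spermatids, against 4.77 and 7.78 FPKM in WT MI spermatocytes, and Tssk1, Tssk3 and Tssk4 differed by 3.85, 4.76 and 4.40. Tssk6 was listed at 0 in both WT MI spermatocyte libraries and held 16.2 and 9.12 FPKM in WT spermatids.

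In the tail, genes of the accessory structures differed more than those of the axoneme. For the fibrous sheath and outer dense fibres 15 of 18 genes were called higher, with a median of 4.11 (13 after scaling to equal totals), and 3 were not called. Akap4, the X-linked main protein of the fibrous sheath, held 903 and 661 FPKM in WT spermatids, against 13.96 and 13.3 FPKM in WT MI spermatocytes (log2 difference 5.72 ± 0.69 SE, adjusted p = 2.2e-05). Odf1 held 696 and 555 FPKM in WT spermatids, against 14.005 and 5.26 FPKM in WT MI spermatocytes. Odf2 was abundant in both groups, with 2647 and 2840.3 FPKM in WT spermatids, against 936 and 1079 FPKM in WT MI spermatocytes (log2 difference 1.45 ± 0.48 SE, adjusted p = 0.025), and its call ended when any of the 4 libraries was left out (adjusted p from 0.067 to 0.12) and with quantile normalization or equal totals (adjusted p from 0.32 to 0.64). Akap3, Ropn1 and Cabyr differed by 4.76, 4.98 and 4.66. Of 65 axoneme genes 21 were called higher and 44 were not called, with a median of 0.82, but after scaling to equal totals 12 were higher and 7 lower and the median was −0.02. That median lay 0.54 above the median over all genes. With a library left out, the number called higher was 13 without WT spermatid replicate 1 or 2 or WT MI spermatocyte replicate 1. Cfap58, Tekt2 and Spag6l, all structural genes of the flagellum, differed by 2.72, 2.71 and 4.06. The dynein heavy chain Dnah8 held 426 and 475 FPKM in WT spermatids and 582 and 834 FPKM in WT MI spermatocytes and was not called (log2 difference −0.63, adjusted p = 0.37). It was called lower by limma with quantile normalization (log2 difference −1.69, adjusted p = 0.032) and with equal totals (log2 difference −1.48, adjusted p = 0.039). The medians of the fibrous sheath list and of the axoneme list were not tested against each other.

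Midpiece genes had 11 of 20 called higher and 9 not called (9 higher and 1 lower after scaling to equal totals). Smcp, a cysteine-rich protein of the mitochondrial capsule of sperm, held 2638 and 1686 FPKM in WT spermatids, against 52.1 and 44.9 FPKM in WT MI spermatocytes (log2 difference 5.42 ± 0.43 SE, adjusted p = 2.3e-06). Spata18, Spata19 and Armc12 differed by 5.19, 4.76 and 4.74, and Gpx4, the selenoenzyme of the mitochondrial capsule, by 2.04. Of 38 genes of the manchette and of head shaping 18 were called higher and 3 lower (11 and 4 after scaling to equal totals, where the median was 0.02 in place of 0.85 and lay 0.58 above that over all genes). Spem1, which spermatids need to shed cytoplasm in mice, held 44.1 and 27.7 FPKM in WT spermatids, against 0.377 and 0 FPKM in WT MI spermatocytes. Sun5 and Spag4, proteins of the nuclear envelope, differed by 4.25 and 4.02, and Spatc1, of the centriole region, by 5.98. Cntrob, a centriole protein, was lower, with 0.778 and 0.197 FPKM in WT spermatids, against 9.75 and 7.79 FPKM in WT MI spermatocytes.

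Germ cell forms of energy enzymes had 13 of 22 called higher and 9 not called (8 higher and 3 lower after scaling to equal totals). In fits that left out a library, the number called lower was 1 without KO spermatid replicate 1 or 2. Gapdhs, the sperm glyceraldehyde phosphate dehydrogenase bound to the fibrous sheath, held 385 and 258 FPKM in WT spermatids, against 8.68 and 6.07 FPKM in WT MI spermatocytes. The aldolases Aldoart1 and Aldoart2 differed by 4.85 and 4.57. Pgk2, the autosomal phosphoglycerate kinase of meiotic and haploid cells, was already high in MI spermatocytes and held 2180.0 and 2355 FPKM in WT spermatids, against 388 and 401 FPKM in WT MI spermatocytes (log2 difference 2.52 ± 0.47 SE, adjusted p = 7.5e-04). Ldhc, the testis lactate dehydrogenase, held 2802 and 2343 FPKM in WT spermatids, against 1099.7 and 872 FPKM in WT MI spermatocytes, and its call (adjusted p = 0.037) ended when any of the 4 libraries was left out (adjusted p from 0.081 to 0.15) and with quantile normalization or equal totals (adjusted p from 0.4 to 0.68). Crisp2, a secreted protein of acrosome and tail and the most abundant gene called higher, held 2909 and 3493 FPKM in WT spermatids, against 925 and 1119.5 FPKM in WT MI spermatocytes (adjusted p = 0.043), and its call ended under 12 alternatives, among them the loss of any of the 4 libraries (adjusted p from 0.0502 to 0.32).

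**Figure D3:**
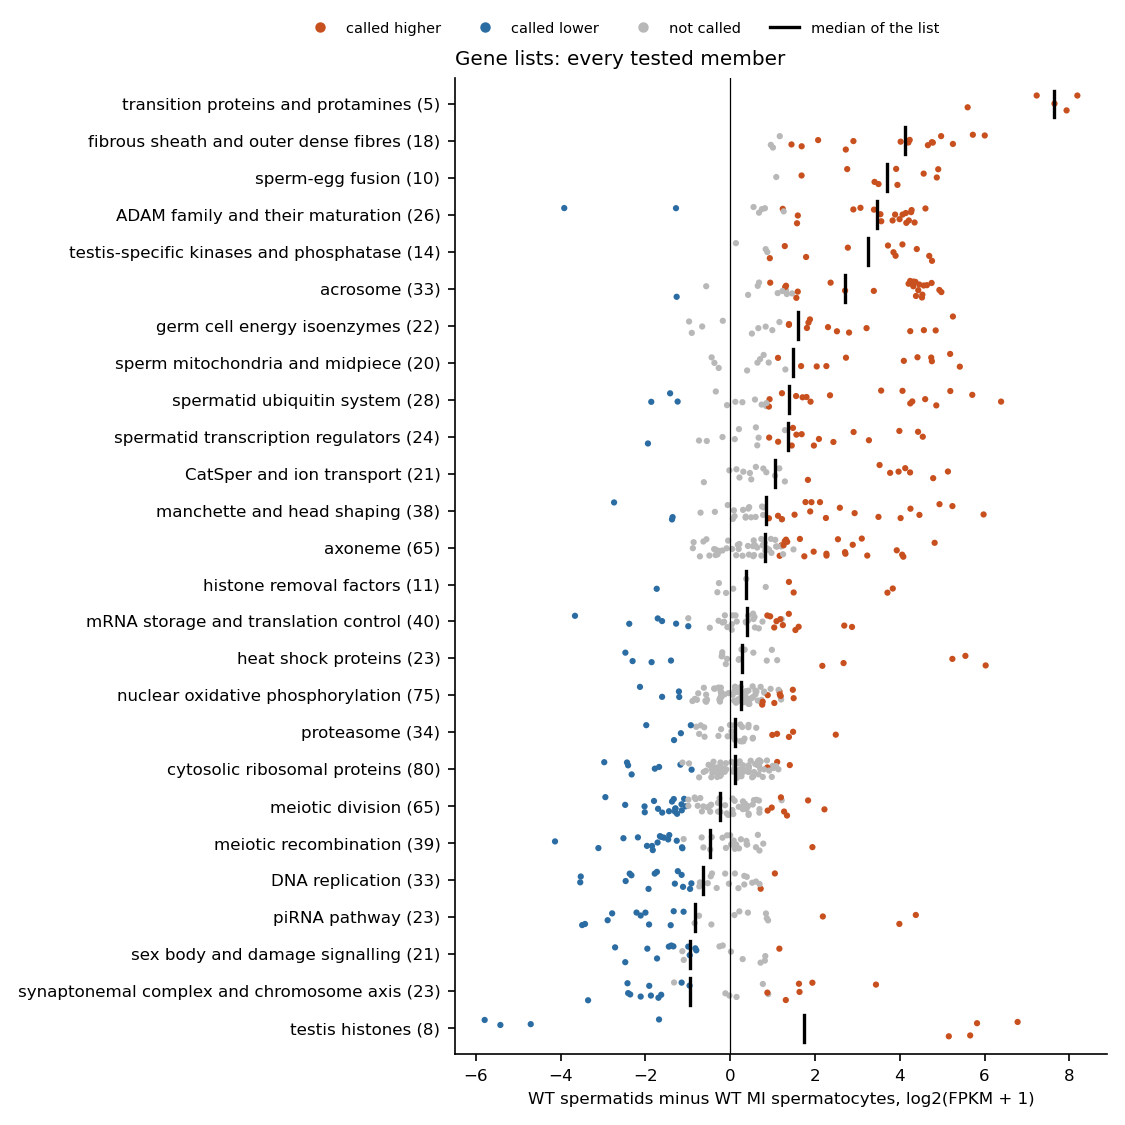
Each point is a tested gene of the list named on the left (number tested in brackets), placed by its log2 difference, WT spermatids minus WT MI spermatocytes, with orange for genes called higher, blue for genes called lower and grey for genes not called. Black bars are list medians, from 7.65 for transition proteins and protamines to −0.96 for the synaptonemal complex list.

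Genes of the meiotic chromosome axis fell in part. Of 23 tested, 11 were called lower and 6 higher, and 14 and 2 after scaling to equal totals. The number called higher was 3 without WT MI spermatocyte replicate 2, and the number called lower was 6 without WT MI spermatocyte replicate 1. Sycp3, an axis protein, held 72.2 and 91.2 FPKM in WT spermatids, against 372 and 240.0 FPKM in WT MI spermatocytes (log2 difference −1.87 ± 0.44 SE, adjusted p = 0.0036). The transverse filament gene Sycp1 differed by −1.69, and its call ended without WT spermatid replicate 1 or WT MI spermatocyte replicate 1 (adjusted p from 0.091 to 0.16). Tex12, of the central element, held 3.94 and 1.28 FPKM in WT spermatids, against 49.8 and 22.004 FPKM in WT MI spermatocytes. Trip13, the ATPase that removes Hormad proteins from the axis, differed by −2.40, and Tex11, a crossover protein of the X chromosome, by −2.36. The rises included cohesin subunits. Rec8, the meiotic kleisin, held 18.5 and 17.01 FPKM in WT spermatids, against 1.34 and 0.274 FPKM in WT MI spermatocytes (log2 difference 3.44 ± 0.48 SE, adjusted p = 6.4e-05), and Stag2 differed by 1.94. Rad21l, another meiotic kleisin, differed by −1.62, at low levels in both groups.

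Recombination genes had 16 of 39 called lower and 1 higher (22 lower, and no gene higher, after scaling to equal totals). With a library left out, no gene was called higher without WT spermatid replicate 2, and the number called lower was 9 without WT MI spermatocyte replicate 1. Spata22, which binds single-stranded DNA during repair, held 0.202 and 1.496 FPKM in WT spermatids, against 28.1 and 30.6 FPKM in WT MI spermatocytes (log2 difference −4.13 ± 0.52 SE, adjusted p = 3.1e-05). Ccnb1ip1 (HEI10) and Mlh3, both needed for crossovers, differed by −3.11 and −2.17, the helicase Hfm1 by −2.52 and Brca2 by −1.96. Tex15 was the rise, with 96.1 and 194 FPKM in WT spermatids, against 40.02 and 30.3 FPKM in WT MI spermatocytes, and its call ended without WT spermatid replicate 2 or WT MI spermatocyte replicate 2 (adjusted p from 0.076 to 0.13) and with quantile normalization or equal totals (adjusted p from 0.14 to 0.25). Of 21 genes of the sex body and of damage signalling 11 were called lower and 1 higher (15 lower, and no gene higher, after scaling to equal totals). In fits that left out a library, the number called higher was 2 without KO MII spermatocyte replicate 1 or 2 or WT MII spermatocyte replicate 1 or 2, and no gene was called higher without WT spermatid replicate 1 or 2, and the number called lower was 7 without WT MI spermatocyte replicate 1 or 2 and 6 without WT spermatid replicate 1. Topbp1, an activator of the kinase ATR, held 3.46 and 5.49 FPKM in WT spermatids, against 40.8 and 28.7 FPKM in WT MI spermatocytes. Atr and Mdc1, which spread phosphorylated H2AX over the sex chromosomes, differed by −1.39 and −1.44.

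Division genes moved in both directions. Of 65 tested, 18 were called lower and 7 higher, and 31 and 2 after scaling to equal totals. The number called higher was 4 without WT spermatogonia replicate 1 or 2, 2 without WT spermatid replicate 1 or WT MI spermatocyte replicate 1 or 2 and 3 without WT spermatid replicate 2, and the number called lower was 6 without WT MI spermatocyte replicate 1, 9 without WT spermatid replicate 1 and 8 without WT spermatid replicate 2. Cks2, a Cdk-binding protein required in the first meiotic division, held 12.4 and 9.74 FPKM in WT spermatids, against 107 and 77.8 FPKM in WT MI spermatocytes (log2 difference −2.94 ± 0.36 SE, adjusted p = 2.4e-05). Fbxo43 (Emi2), an inhibitor of the anaphase-promoting complex, Cdk2 and the topoisomerase Top2b differed by −2.02, −2.01 and −2.47. The phosphatases Cdc25c and Cdc25a, which activate cyclin-dependent kinases, were among the genes called higher, with 14.7 and 15.4 FPKM in WT spermatids, against 2.496 and 2.37 FPKM in WT MI spermatocytes for Cdc25c. Plk1, a kinase of the division, differed by 1.27, and its call ended when any of the 4 libraries was left out (adjusted p from 0.079 to 0.15) and with quantile normalization or equal totals (adjusted p from 0.48 to 0.72). After scaling to equal totals the log2 differences were 1.46 for Cdc25c and 1.004 for Cdc25a.

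DNA replication genes had 14 of 33 called lower and 2 higher (20 lower, and no gene higher, after scaling to equal totals). With a library left out, no gene was called higher without WT spermatid replicate 1 or 2 or WT MI spermatocyte replicate 2. Dnmt1, the maintenance DNA methyltransferase, held 1.78 and 1.72 FPKM in WT spermatids, against 31.7 and 29.96 FPKM in WT MI spermatocytes (log2 difference −3.53 ± 0.25 SE, adjusted p = 2.0e-06). The helicase subunits Mcm2, Mcm3 and Mcm6 differed by −2.33, −3.52 and −2.37, and the ligase Lig1 by −2.46. Beside these falls, the spermatogonia markers Kit, Dmrt1 and Crabp1 held 8.29 and 6.303, 6.92 and 7.497 and 25.1 and 9.92 FPKM in WT MI spermatocytes, and their part in them was not tested. Immediate early genes were also lower, with 9 of 16 called lower and 1 higher (10 and 1 after scaling to equal totals, and 2 lower without WT MI spermatocyte replicate 1 or WT spermatid replicate 2), and summed to 182 and 184 FPKM in WT spermatids and to 510 and 180.3 FPKM in WT MI spermatocytes. Egr1 held 18.1 and 6.42 FPKM in WT spermatids, against 149 and 56.1 FPKM in WT MI spermatocytes, and Klf4, a gene known to be expressed in spermatids, held 111 and 152 FPKM in WT spermatids, against 38.97 and 17.3 FPKM in WT MI spermatocytes, and its call ended with quantile normalization (adjusted p = 0.071).

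The piRNA pathway, which silences transposons and binds pachytene piRNAs in spermatocytes, fell in part: 11 of 23 genes were called lower and 3 higher (14 and 2 after scaling to equal totals). In fits that left out a library, the number called higher was 5 without WT MII spermatocyte replicate 1 or 2, and the number called lower was 7 without WT spermatid replicate 2 or WT MI spermatocyte replicate 1 or 2. Tdrd1, a tudor scaffold protein, held 21.7 and 18.7 FPKM in WT spermatids, against 193 and 291 FPKM in WT MI spermatocytes (log2 difference −3.49 ± 0.43 SE, adjusted p = 2.4e-05). Piwil1 (MIWI), the argonaute of pachytene piRNAs, held 24.4 and 18.2 FPKM in WT spermatids, against 131 and 174 FPKM in WT MI spermatocytes. Tdrd5, Mov10l1 and Piwil2 differed by −3.42, −2.89 and −2.21. Gtsf1l, a zinc finger gene related to a PIWI cofactor, was higher by 4.38. Mael, one of the most abundant messages in these libraries, held 3891 and 4216 FPKM in WT spermatids and 1986 and 2384 FPKM in WT MI spermatocytes and was not called (adjusted p = 0.15).

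Among 40 regulators of stored messages 11 were called higher and 6 lower, not far from the 22.6% and 19.8% over all genes, and 2 and 12 after scaling to equal totals, where the median was −0.37 in place of 0.40. With equal totals it lay 0.18 above the median over all genes. The number called higher was 7 without WT spermatid replicate 1 or WT MI spermatocyte replicate 1 or 2 and 6 without WT spermatid replicate 2. Dazl, an RNA-binding protein of germ cells, held 6.77 and 5.39 FPKM in WT spermatids, against 132 and 58.6 FPKM in WT MI spermatocytes (log2 difference −3.66 ± 0.43 SE, adjusted p = 1.8e-05), and Cpeb1 differed by −2.38. Papolb, the cytoplasmic poly(A) polymerase of spermatids, held 966 and 1174 FPKM in WT spermatids, against 286 and 419.7 FPKM in WT MI spermatocytes, and its call ended without WT spermatid replicate 1 or 2 or WT MI spermatocyte replicate 1 (adjusted p from 0.062 to 0.15) and with quantile normalization or equal totals (adjusted p from 0.26 to 0.47). Fam46c, another poly(A) polymerase, and Mex3b, an RNA-binding protein, differed by 2.69 and 2.88. The spermatid ubiquitin list had 17 of 28 called higher and 3 lower (12 and 4 after scaling to equal totals). With a library left out, the number called lower was 1 without WT spermatid replicate 1. Ubqlnl, a ubiquilin-like gene, held 351 and 221 FPKM in WT spermatids, against 2.49 and 2.18 FPKM in WT MI spermatocytes. Klhl10, a ubiquitin ligase adaptor of spermatids, and the ring finger gene Rnf133 differed by 4.60 and 5.19, whereas Ubr2, a ubiquitin ligase required in spermatocytes, differed by −1.86.

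Of 23 chaperone genes 14 were not called, and the shares called, 5 higher and 4 lower, were close to those over all genes (5 and 7 after scaling to equal totals). Hspa1l, the testis-enriched Hsp70, held 243 and 164 FPKM in WT spermatids, against 3.24 and 1.23 FPKM in WT MI spermatocytes, and Dnajb7 and Dnajb8 differed by 5.24 and 5.55. Hspa8, the general Hsp70, fell to 17.2 and 13.9 FPKM in WT spermatids, against 101 and 63.8 FPKM in WT MI spermatocytes, and Hsp90ab1 differed by −1.39. Most genes of the ribosome, respiration and the proteasome were not called, with 3 of 80, 9 of 75 and 5 of 34 higher and 8, 4 and 4 lower, and after scaling to equal totals 27, 18 and 14 were lower, with list medians of −0.73, −0.51 and −0.68 in place of 0.11, 0.26 and 0.11. With that scaling 35.3% of all genes were lower, and these list medians lay −0.18, 0.04 and −0.12 from the median over all genes. For the ribosome list, the number called higher was 5 without WT MII spermatocyte replicate 1 or 2 and 1 without WT spermatid replicate 1 or 2, and no gene was called higher without WT MI spermatocyte replicate 2, and the number called lower was 4 without WT spermatid replicate 2 or WT MI spermatocyte replicate 1. For respiration, the number called higher was 3 without WT MI spermatocyte replicate 1 or 2, 2 without WT spermatid replicate 1 and 4 without WT spermatid replicate 2, and the number called lower was 1 without WT MI spermatocyte replicate 1 and 2 without WT MI spermatocyte replicate 2, and no gene was called lower without WT spermatid replicate 2. For the proteasome, the number called higher was 3 without WT spermatid replicate 2 or WT MI spermatocyte replicate 1. Psma8, the proteasome subunit of spermatocytes, differed by −1.98 and Psma6 by 2.49. The ribosomal genes Rpl10a and the X-linked Rpl36a differed by −2.97 and −2.41.

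The remaining genes at the ends of the ranking had varied roles. Cabs1, a calcium-binding protein of spermatids, held 1021 and 607 FPKM in WT spermatids, against 7.58 and 5.83 FPKM in WT MI spermatocytes. Hmgb4, an HMG box protein of the testis, and Cypt12, a perinuclear theca gene, differed by 6.10 and 6.03. Kcnk10, a potassium channel gene, held 0.840 and 1.16 FPKM in WT spermatids, against 41.9 and 82.3 FPKM in WT MI spermatocytes (log2 difference −4.90 ± 0.55 SE, adjusted p = 1.3e-05). Anp32b, a histone chaperone, and the zinc finger gene Zfp389 differed by −4.42 and −4.32. The most abundant genes called lower included Calm2, a calmodulin gene, with 187 and 141 FPKM in WT spermatids, against 660.3 and 659 FPKM in WT MI spermatocytes. Sprtn, a protease for DNA-protein crosslinks, and Mllt10, a cofactor of the H3K79 methyltransferase, differed by −2.01 and −2.78.

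On the deposited scale, genes that appeared were far more numerous than genes that vanished. Under 1 FPKM in both WT MI spermatocyte libraries and at 10 FPKM or more in both WT spermatid libraries were 206 genes (1.57%), and the reverse held for 6 (0.0458%). No other scaling was tried for these classes. FPKM totals on that scale were 512412 and 533859 in WT spermatids, against 277335 and 302210 in WT MI spermatocytes. The 206 genes made up 1.16% and 0.880% of the FPKM of the WT spermatid libraries, against 0.0364% and 0.0305% of the WT MI spermatocyte libraries, and 92 of them had cDNA or predicted names. The most abundant were 1700001C19Rik, with 149.9 and 81.7 FPKM in WT spermatids, against 0.995 and 0.797 FPKM in WT MI spermatocytes, then Gm136, 1700009J07Rik, Tuba8 and the X-linked Ppp1r2-ps7. Tuba8, an alpha tubulin, held 102 and 55.96 FPKM in WT spermatids, against 0.956 and 0.200 FPKM in WT MI spermatocytes. The 6 genes of the reverse class were the histones Hist1h2ba, Hist1h2ab and Hist1h1e, Stox1, Cdc7 and Rest. Cdc7, the kinase that fires replication origins, held 0.788 and 0.757 FPKM in WT spermatids, against 11.4 and 12.6 FPKM in WT MI spermatocytes. Rest, the repressor of neuronal genes and named after its values were seen, held 0.952 and 0.772 FPKM in WT spermatids, against 10.6 and 11.04 FPKM in WT MI spermatocytes.

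The promoters of the 206 genes were searched for 8 short motifs in the 250 bases before the start, on both strands, in the 166 with a RefSeq entry. The frame TGANNTCA, TATAA and the octamer ATGCAAAT were added to the search after the sequences were seen. The frame was in 34.3% of these promoters, 20.1% of those of genes called higher, 9.92% of those of genes called lower and 12.3% of all 10566. Split by its central bases, TGACATCA or its reverse TGATGTCA was in 18.1%, 8.14%, 1.64% and 3.20% in the same order of sets, and TGACCTCA or TGAGGTCA in 8.43%, 3.88%, 1.78% and 2.05%. The full palindrome TGACGTCA, which the frame includes, was in 3.01%, 3.88%, 2.65% and 3.12%, and its part TGACG in 14.5%, 28.8%, 31.3% and 29.8%. The shares of CAGTTG, a MYB motif, were 18.7%, 13.2%, 10.4% and 11.1%, and those of TATAAA were 15.1%, 10.6%, 7.47% and 8.43%. TATAA, which lies within TATAAA, was in 25.9%, 20.2%, 14.2% and 16.02%. The octamer ATGCAAAT was in 0, 0.960%, 1.73% and 1.43%, and the X-box motif of RFX factors in 0, 1.002%, 0.385% and 0.681%. Base composition differed between these sets, with a median of 52.0% A or T in the 206-gene class, 44.8% in genes called higher, 38.8% in genes called lower and 40.8% in all, and its part in the shares was not tested.

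Of the 206 genes 17 were members of the gene lists, 15 of these had a promoter entry, and 8 held the frame. Windows of up to 10 bases on each side, on the strand of the gene, show it for a part of these genes, with the frame in capitals: Adam29 at chr8:55906981-55907008, Prm3 at chr16:10790957-10790984, Rnf148 at chr6:23655199-23655226 and Ubl4b at chr3:107555074-107555097 on the minus strand, and Izumo2 at chr7:44708712-44708729 and Ube2dnl1 at chrX:114904943-114904970 on the plus strand.
Adam29: ttctctattaTGACATCAcatttattaa
Prm3: ggagcctttgTGAGGTCAgtgccacacc
Rnf148: taactacctcTGATGTCAcaatttaccc
Ubl4b: tgtagcattaTGACATCActgtgc
Izumo2: gtcgcccctgTGAGGTCA
Ube2dnl1: atgctctctgTGACATCAtagaatactc
The printed frame in Adam29 is TGACATCA, in Rnf148 its reverse complement TGATGTCA and in Prm3 and Izumo2 TGAGGTCA. Windows not printed are those of Actrt1 (TGAGATCA and TGAATTCA) and Calr3 (TGAGGTCA) and further ones of Rnf148 (TGAAATCA) and Ube2dnl1 (TGACTTCA). Adam29, a testis metalloprotease-like gene, held 11.3 and 21.8 FPKM in WT spermatids, against 0.557 and 0.281 FPKM in WT MI spermatocytes, and Ubl4b, an autosomal copy of the X-linked Ubl4a, held 59.98 and 25.4 FPKM in spermatids, against 0.450 and 0 FPKM in MI spermatocytes. The ring finger gene Rnf148 held 28.8 and 23.3 FPKM in WT spermatids, against 0.430 and 0.309 FPKM in WT MI spermatocytes.

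The X chromosome had a larger share of genes called higher than any autosome, and the Y, with 8 genes tested, is described below. Of 503 X-linked genes tested, 36.2% were called higher and 16.5% lower, whereas on the autosomes from 18.0% (chromosome 19) to 28.8% (chromosome 14) were called higher. With quantile normalization 35.6% and with equal totals 29.0% of X-linked genes were called higher, against at most 21.4% and 19.2% on any autosome. The median log2 difference of X-linked genes was 0.05, within the range of autosomal medians from −0.10 to 0.10. With quantile normalization the X median was 0.29 and autosomal medians ran from −0.29 to −0.09, and with equal totals it was −0.22 and they ran from −0.67 to −0.46, so that under both scalings the X median lay above that of every autosome. X-linked genes had a median of 2.07 and 1.80 FPKM in WT spermatids and 1.52 and 1.003 FPKM in WT MI spermatocytes, against 6.36 and 6.41 FPKM and 5.77 and 5.39 FPKM over all genes. Of X-linked genes 5.57% belonged to the class under 1 FPKM in MI spermatocytes and at 10 FPKM or more in spermatids, and on the autosomes 0.595% to 2.56% did. No test of the chromosomes against each other was made.

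**Figure D4:**
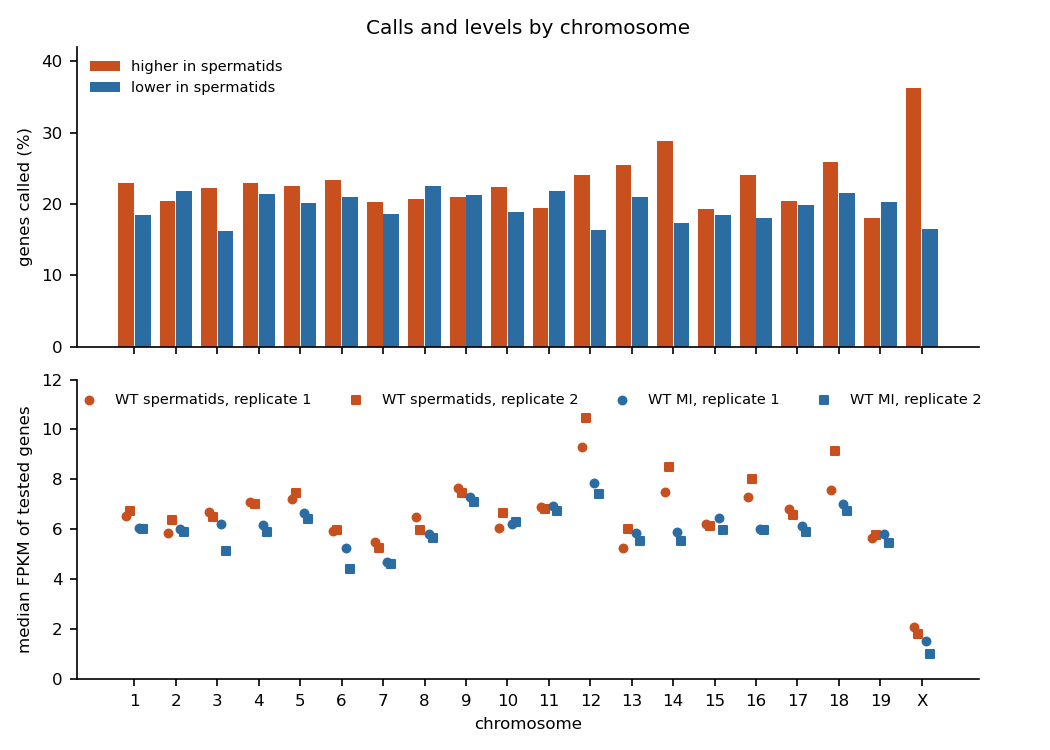
Above, the percentage of tested genes called higher (orange) and lower (blue) in WT spermatids on each chromosome, and below, the median FPKM of the tested genes in each library, with WT spermatids left of WT MI spermatocytes. The X chromosome has 36.2% of genes called higher and medians between 1.003 and 2.07 FPKM, lower than every autosome.

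Most X-linked spermatid genes were called higher. On the X, 17 of 24 spermatid genes were called higher and 3 lower (17 and 4 after scaling to equal totals), with a median of 3.03. The list names spermatid genes, chosen with earlier results of these data known, so its share does not describe the X. Tcp11x2, an X-linked relative of a sperm tail gene, held 53.6 and 68.7 FPKM in WT spermatids, against 1.902 and 1.29 FPKM in WT MI spermatocytes. Of the theca gene family, Cypt1, Cypt2 and Cypt3 differed by 4.36, 3.47 and 3.75, and their near-identical copies may share reads. Tex13 and Tktl1 were the opposite, with 0.601 and 0.267 FPKM in WT spermatids, against 7.77 and 3.92 FPKM in WT MI spermatocytes for Tex13. Among 48 broadly expressed X-linked genes 9 were called higher and 14 lower (4 and 22 after scaling to equal totals). In fits that left out a library, the number called lower was 5 without WT MI spermatocyte replicate 1 and 8 without WT spermatid replicate 2. For comparison, 22.6% of all genes were called higher and 19.8% lower, and 12.6% and 35.3% with equal totals. Of all X-linked genes 36.2% were called higher and 16.5% lower on the deposited scale. The counts of this list were not tested against these shares. Cul4b, a ubiquitin ligase scaffold, held 69.3 and 99.9 FPKM in WT spermatids, against 18.8 and 11.05 FPKM in WT MI spermatocytes, and Phf6 and Rbm10 differed by 2.94 and 1.77. Taf1, a TFIID subunit, held 0.343 and 0.850 FPKM in WT spermatids, against 8.15 and 5.48 FPKM in WT MI spermatocytes, and the remodeller Atrx differed by −1.69. On the Y, 4 of 8 genes were called higher and 4 were not called (2 higher and 1 lower after scaling to equal totals). The number called higher was 2 without WT spermatid replicate 2 or WT MI spermatocyte replicate 2, and the number called lower was 1 without KO MI spermatocyte replicate 1 or 2. Eif2s3y, a translation initiation factor gene, held 33.7 and 48.5 FPKM in WT spermatids, against 10.3 and 6.08 FPKM in WT MI spermatocytes, and Zfy2 differed by 1.91.

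Genes with short transcripts rose more often. Among 12592 genes with an annotated transcript length, the longest transcript had a median of 2.634 kb in genes called higher, 3.879 kb in genes called lower and 3.207 kb in genes not called. In the shortest of 4 equal length classes, up to 2.003 kb, 33.4% were called higher and 10.9% lower, and in the longest class, from 4.699 kb, 16.1% and 27.2%. The summed FPKM of WT spermatids over that of WT MI spermatocytes was 2.42, 1.82, 1.52 and 1.31 from the shortest to the longest class. Because FPKM divides by length, a shift of the RNA towards short transcripts raises an FPKM total, and the part of this in the totals above was not tested.

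The 4 KO libraries of the same stages share no library with the wild-type ones. Both stage differences came from the same limma fit of all 16 libraries, with a shared estimate of the spread for each gene. The KO and wild-type calls are therefore not independent. For 6 of the 8 KO libraries of the series the cell type field disagrees with the title, so the KO groups here follow the titles. Of the 5543 genes called in the wild type, 5505 (99.3%) had the same sign in the KO libraries, and 4576 were called the same way, which is 82.6% of the wild-type calls and 82.5% of the 5549 KO calls. In KO 3090 genes (23.6%) were called higher and 2459 (18.8%) lower in spermatids. A difference of the stage change between KO and WT was called by limma for 0 genes, with 242 at an unadjusted p under 0.05 and a smallest adjusted p of 0.767. With so few libraries a group, this does not show that the changes were equal. Tnp1 held 1188 and 1209 FPKM in KO spermatids, against 17.2 and 19.5 FPKM in KO MI spermatocytes, a log2 difference of 5.95. Hist1h2aa held 92.3 and 232 FPKM in KO spermatids, against 1178 and 1021 FPKM in KO MI spermatocytes, a log2 difference of −2.90, and the change in KO minus that in WT was 2.89 ± 0.72 (SE) (adjusted p = 1). Usp51, an X-linked ubiquitin protease named after its values were seen, was the 1 gene called in opposite directions, with 4.12 and 3.01 FPKM in WT spermatids and 0.949 and 0.190 FPKM in WT MI spermatocytes, and 2.497 and 2.38 FPKM in KO spermatids and 5.91 and 9.703 FPKM in KO MI spermatocytes. Its WT call ended without WT MI spermatocyte replicate 2 (adjusted p = 0.051) and with equal totals (adjusted p = 0.071).

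**Figure D5:**
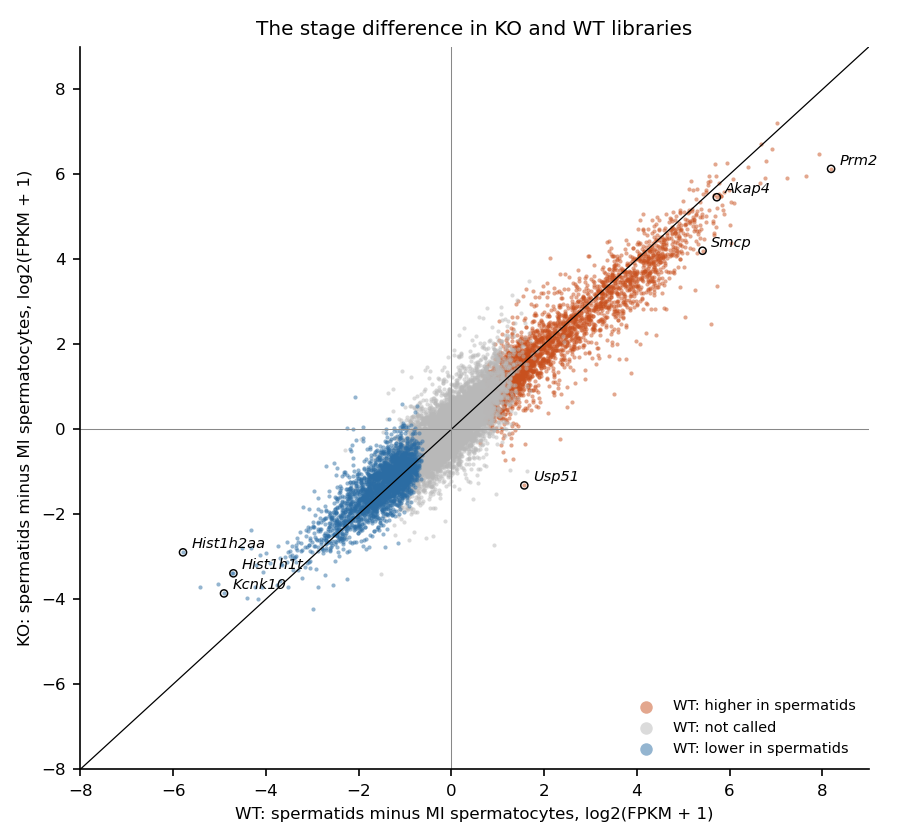
Each point is a gene, with the log2 difference between spermatids and MI spermatocytes in KO libraries on the y axis and in WT libraries on the x axis, coloured by the WT call, and the diagonal marks equal differences. Of the genes called in WT 99.3% lie on the same side of 0 in both, and Usp51 is the gene called in opposite directions.

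Tex10 itself, the gene deleted in the KO and a member of a complex for ribosome maturation, held 98.8 and 116 FPKM in WT spermatids, against 63.1 and 57.5 FPKM in WT MI spermatocytes (log2 difference 0.82 ± 0.31 SE, adjusted p = 0.046), and 31.8 and 34.8 FPKM in KO spermatids and 10.9 and 14.6 FPKM in KO MI spermatocytes. The call in WT ended under 16 alternatives, among them the loss of any of the 4 libraries (adjusted p from 0.0501 to 0.96), and with equal totals the log2 difference was −0.02. Of its partners Nol9 differed by −2.01 and Mdn1 by −1.32, a call that ended without WT MI spermatocyte replicate 2 (log2 difference −1.14). Of the 7 genes of the complex tested, Tex10 included, 1 was called higher, 2 lower and 4 were not called. After scaling to equal totals 5 were lower and no gene was higher. Over all genes 22.6% were called higher and 19.8% lower, and 12.6% and 35.3% with equal totals.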

How the data were processed

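RNA of sorted testis cells was sequenced as polyA-enriched bulk libraries (16 libraries, 8 groups of 2). The submitters' processing notes name Cufflinks 2.2.1, STAR 2.7.6a, Trim Galore 0.6.3, FastQC 0.10.1, cutadapt and the build mm10. The deposited values were read as FPKM to which the authors had added 1, since the smallest value is 1, and the 1 was subtracted. No source used here states further scaling, strand or the sort. Depth is unknown because FPKM hold no read numbers, so no counting intervals are given. Of 13101 genes, 1110002L01Rik was left out because a cell held a letter. A value of 0 (3.33% of values) is called listed at 0, since it can be a failed estimate.

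Groups follow the titles. Nothing in the labels ties the libraries of a group to different mice, and the p-values measure only the spread between these samples, in part or whole perhaps technical. Genes with at least 1 FPKM in 2 libraries (13099) entered a limma fit (version 3.58.1, R 4.3.3) of log2(FPKM + 1) (8 groups, eBayes with a trend, 8 residual degrees of freedom, Benjamini-Hochberg adjusted p under 0.05). Fold changes on this scale understate those of low genes. On simulated data for WT spermatids against WT MI spermatocytes (13099 genes, 200 changed), the test called 66% of genes with a true log2 difference of 2 and 8% of those with 1. Of its 83 calls 9 were false. The changed genes were not drawn from genes low in MI spermatocytes, and far more genes were called in the data (42.3%). These shares therefore need not hold for the data.

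Members and gene lists were chosen with earlier results of these data known. Named genes are list members, Tex10, the 10 largest rises and 10 largest falls among calls without overlap of the groups, with a mean of 5 FPKM or more in one group and no predicted or cDNA clone name, the 5 most abundant calls in each direction, and the 5 most abundant genes in each direction that were under 1 FPKM in one group and at 10 FPKM or more in the other. Other genes named are said to be chosen after their values were seen. A gene that the rule names is not reported here. Positions are from GENCODE M21 (12572 genes by symbol, with 477 chromosomes added from RefSeq), and promoters from RefSeq GRCm38.p6 (10566 of the tested genes). Tried as alternatives were pseudocounts of 0.1 and 5, a 5 FPKM filter and none, median-of-ratios and quantile scaling, eBayes without the trend, array weights, a replicate block, fits of fewer libraries, each library left out and, chosen after seeing the data, equal FPKM totals and robust eBayes. Where a library was left out, the lone library of its group is assumed to vary like the other groups. Python 3.11.15, pandas 2.3.3 and matplotlib 3.10.9 made the tables and figures.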

Additional observations from a re-analysis of the deposited data

How the results depend on the processing

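Against the 5543 genes called (2955 higher and 2588 lower in spermatids), the total was 5604 with a pseudocount of 0.1, 5245 with one of 5, 5275 with the 5 FPKM filter, 5643 with median-of-ratios scaling, 4588 with quantile normalization, 7103 with array weights, 6688 in a fit of the 4 libraries alone and 6277 with equal FPKM totals. With equal totals 1650 were higher and 4627 lower, the counts that moved most, and the median over all genes was −0.56. Leaving out each library gave 3814 to 5901 calls, 2173 to 3216 higher and 1583 to 2685 lower. The lower count was 1641 without WT spermatid replicate 2 and 1583 without WT MI spermatocyte replicate 1. Why these libraries mattered more was not tested. The difference of the stage change between KO and WT was called for 0 genes under each alternative that included both genotypes (limma, with 242 genes at an unadjusted p under 0.05 on the deposited scale). With the replicate number as a block 6196 genes were called. WT spermatids and WT MI spermatocytes share only that number, and their same-numbered libraries deviated together with r = 0.229 across genes.

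Brdt, which was not called, had a log2 difference of −0.198 with quantile normalization and −0.0111 with equal totals, and Tex10 had −0.0736 and −0.0240. Of the named genes not called, 8 were called under 1 or more alternatives. With the replicate block these were Acr, Zpbp2 and Dpy19l2 (limma adjusted p = 0.0281, 0.0245 and 0.0307). Of 186 named genes that were called, 11 lost the call with quantile normalization and 11 with equal totals. Read numbers are unknown, so precision rests on 2 libraries a group.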

Other observations

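Gene families grouped by name were chosen after their values were seen, and their counts were not tested. Over all genes 22.6% were called higher and 19.8% lower, and 12.6% and 35.3% with equal totals. Of 271 uncharacterised cDNA genes whose names share one Rik prefix 184 were called higher and 8 lower in spermatids (median log2 difference 2.54), and 153 and 16 with equal totals (median 1.84). Of 335 whose names share another prefix, 214 were higher and 24 lower (179 and 34 with equal totals). Spata genes, named for links to spermatogenesis, had 21 of 26 higher and 1 lower (16 and 3 with equal totals). Ttll genes, which encode enzymes that add glutamate or glycine to tubulin, had 8 of 12 higher and 1 lower (6 and 2 with equal totals). Among 23 tested Olfr genes, named as odorant receptors, 11 were higher and 1 lower (10 and 1 with equal totals).

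Of 28 RNA polymerase subunit genes 1 was called higher and 15 lower (median −1.25), and 19 were lower with equal totals (median −1.54). Of 10 SR splicing factor genes 8 were lower and 2 not called (median −1.32), and 10 were lower with equal totals (median −2.11). Of 25 histone methylation genes named Kdm or Setd, 1 was higher and 8 were lower (16 lower with equal totals), and of 283 zinc finger genes named Zfp, 45 were higher and 81 lower (26 and 134 with equal totals). Mediator subunits had 6 of 31 called in each direction, close to the shares over all genes (1 higher and 14 lower with equal totals).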
